A study of Homo sapiens with 3 samples.

Results

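The miR-183, miR-96 and miR-182 cluster is a set of 3 microRNA hairpins in a row on 1 strand of human chromosome 7. Its members were chosen by name, as every hairpin called hsa-mir-183, hsa-mir-96 or hsa-mir-182 and every mature strand (arm) cut from them. They made up 3 of the 661 hairpins and 3 of the 783 mature names listed in the data. The listed mature names were miR-183-5p, miR-96-5p and miR-182-5p, 1 for each hairpin, and the corresponding 3p arms were not analysed here.

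The cells were MV4-11, a line derived from an acute myeloid leukemia that carries an internal tandem duplication of the FLT3 kinase gene and the MLL-AF4 fusion. The labels gave the genotype as WT. All cells had been infected with a lentiviral CRISPR-Cas9 construct without a gene-directed guide (empty vector, EV) and had then been grown for 2 weeks. There were 3 cultures in 1 group, with no uninfected cells and no other line, so comparisons could be made between miRNAs and between libraries but not between treatments. The edgeR p-values below therefore rest on the spread between 3 cultures of a single line. The p-values of the exact test below set the read counts of these libraries against counting error alone, with reads as the units.

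The 3 hairpins of this cluster are known to be cut from a common primary transcript. Drosha releases each hairpin in the nucleus, Dicer cuts it in the cytoplasm, and one arm is loaded into an Argonaute protein, where the bases near its 5′ end (the seed) pair with target messages. The cluster is best known from sensory organs. It is abundant in photoreceptors and in the hair cells of the inner ear, and changes in the seed of miR-96 cause inherited hearing loss. In lymphocytes miR-182 is induced on activation, and in many carcinomas the whole cluster is elevated. miR-182 was also a hit of the growth screen in the same study.

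The 5p arms had closely related sequences, shown here because the seed decides which messages each arm can pair with. The sequences come from RefSeq on GRCh38 and run 5′ to 3′, and the capitals mark the seed, bases 2 to 8 counted from 1 at the 5′ end.
hsa-miR-183-5p: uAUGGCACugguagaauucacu
hsa-miR-96-5p: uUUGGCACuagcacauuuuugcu
hsa-miR-182-5p: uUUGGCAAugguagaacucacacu

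The seed of miR-182-5p differed from that of miR-96-5p by A8C, with the base of miR-182-5p written first, so that 6 of 7 seed bases were equal. It differed from the seed of miR-183-5p by U2A and A8C, with 5 of 7 bases equal. The seeds of miR-96-5p and miR-183-5p differed by U2A. Over the whole strand the order of likeness was another one. miR-182-5p and miR-183-5p were equal at 18 of 22 positions, whereas miR-182-5p and miR-96-5p were equal at only 12 of 23 and miR-96-5p and miR-183-5p at 13 of 22. The pair that was most alike outside the seed was thus the least alike within it.

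In the GENCODE annotation of GRCh38 the genes lie on the minus strand of chromosome 7. MIR183 comes first in the direction of transcription, at 129774905 to 129775014. MIR96 is at 129774692 to 129774769, after a gap of 135 bp. MIR182 is at 129770383 to 129770492, after a further gap of 4199 bp. The whole stretch is 4632 bp long and overlaps no other annotated gene. The nearest gene upstream on that strand is the lincRNA AC084864.1, which ends 8356 bp from MIR183. MIR183 and MIR96 are therefore close neighbors, and MIR182 stands apart from both.

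**Figure D1:**
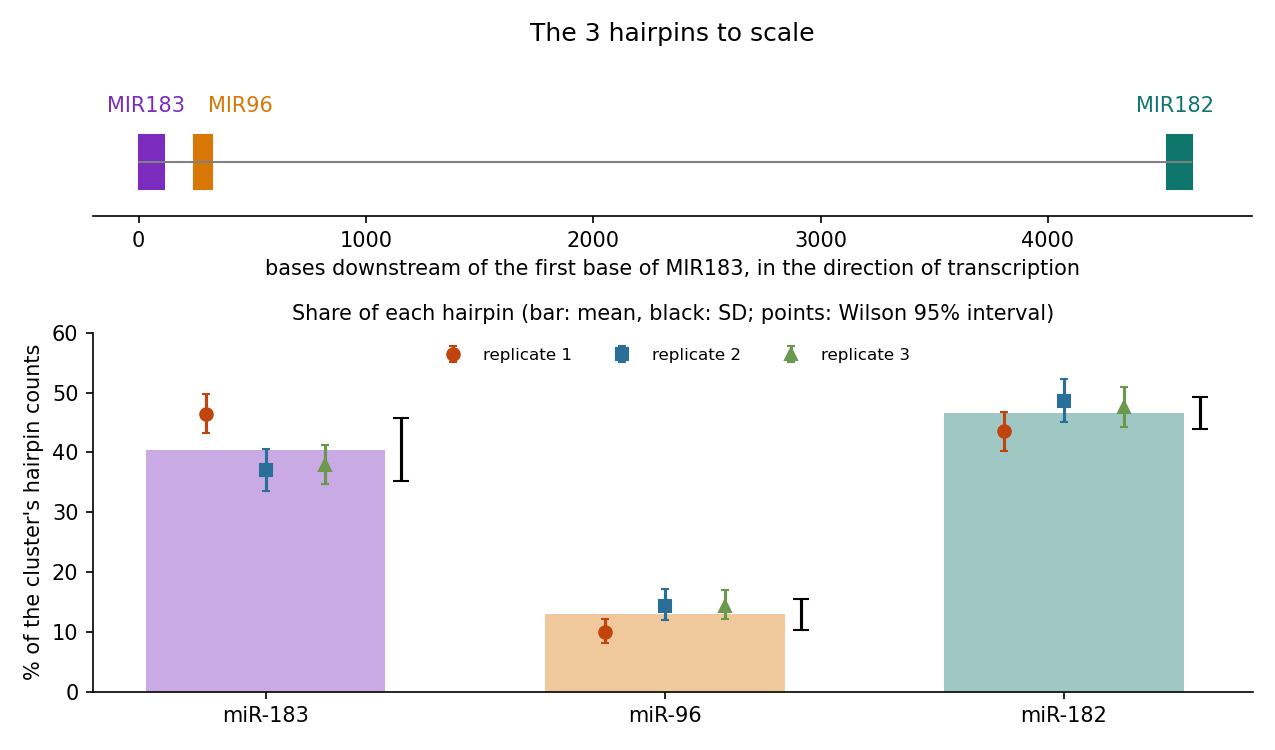
Map of the cluster (upper panel, distance in bp from the first base of MIR183 in the direction of transcription, hairpins drawn to scale) and the percent of the cluster's hairpin counts taken by each hairpin in each library (lower panel, points with 95% Wilson intervals, with the mean as a bar and its SD as a black line beside it). mir-182 and mir-183 took most of the counts in all 3 libraries, and mir-96 took between 10.01% and 14.4%.

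The libraries were deep, but the cluster received few of their reads. Listed mature counts were 12694823, 10991953 and 11682129 in replicates 1, 2 and 3, and listed hairpin counts were 12722997, 11022587 and 11715711. The median mature miRNA was higher than in replicate 1 by 0.48 on the log2 scale of CPM (counts per 1000000 listed counts) in replicate 2, and by 0.57 in replicate 3, whereas replicate 3 was above replicate 2 by only 0.09. Replicate 1 thus stood apart from the other libraries, and the tests of hairpin ratios that involve mir-183 are given with and without it. Mean shares, arm ratios and profiles below include it. Markers of white blood cells were abundant, with 4 of 4 listed at 230877 to 1100894.7 mean FPKM (the deposited unit of level, counts divided by feature length and by the reads of the library). They included miR-223-3p, a myeloid miRNA, and miR-155-5p. Of 7 epithelial miRNAs, 5 were listed, at 195.41 to 6378.75 mean FPKM, with a summed level of 10122.4 to 13529.1 over the libraries. miR-205-5p and miR-203a-3p were not among those listed. Since epithelial cells also carry the cluster, these values are given beside it, and their part in its level was not tested.

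miR-182-5p was counted 376, 353 and 403 times in replicates 1, 2 and 3. These counts corresponded to 1287 FPKM, 1396 FPKM and 1500 FPKM (mean 1394 ± 106, SD, n = 3). The values lay close together, with replicate 1 lowest and replicate 3 highest. As a share of all mature counts, miR-182-5p took 29.6 CPM (95% interval 26.8 to 32.8), 32.1 (28.9 to 35.6) and 34.5 (31.3 to 38.0). The intervals of the 3 libraries overlapped. All such intervals are Wilson intervals that cover only the counting error of reads within a library. The reads carried no molecular identifiers, so amplified copies were counted as reads.

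miR-183-5p was counted 401, 269 and 314 times, or 1504 FPKM, 1165 FPKM and 1280 FPKM (mean 1316 ± 172, SD, n = 3). Here replicate 1 was the highest library, not the lowest. The corresponding levels were 31.6 CPM (28.6 to 34.8), 24.5 (21.7 to 27.6) and 26.9 (24.1 to 30.02). The interval of replicate 1 lay above that of replicate 2.

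miR-96-5p, the arm whose seed changes underlie hearing loss, was the least abundant member. It was counted 87, 101 and 122 times, or 311 FPKM, 418 FPKM and 475 FPKM (mean 401 ± 83, SD, n = 3). Its order over the libraries was that of miR-182-5p, with replicate 1 lowest. The levels were 6.85 CPM (5.56 to 8.45), 9.19 (7.56 to 11.2) and 10.4 (8.75 to 12.5). The interval of replicate 1 lay below that of replicate 3. The highest miR-96-5p value, that of replicate 3, lay below the lowest value of either other arm.

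**Figure D2:**
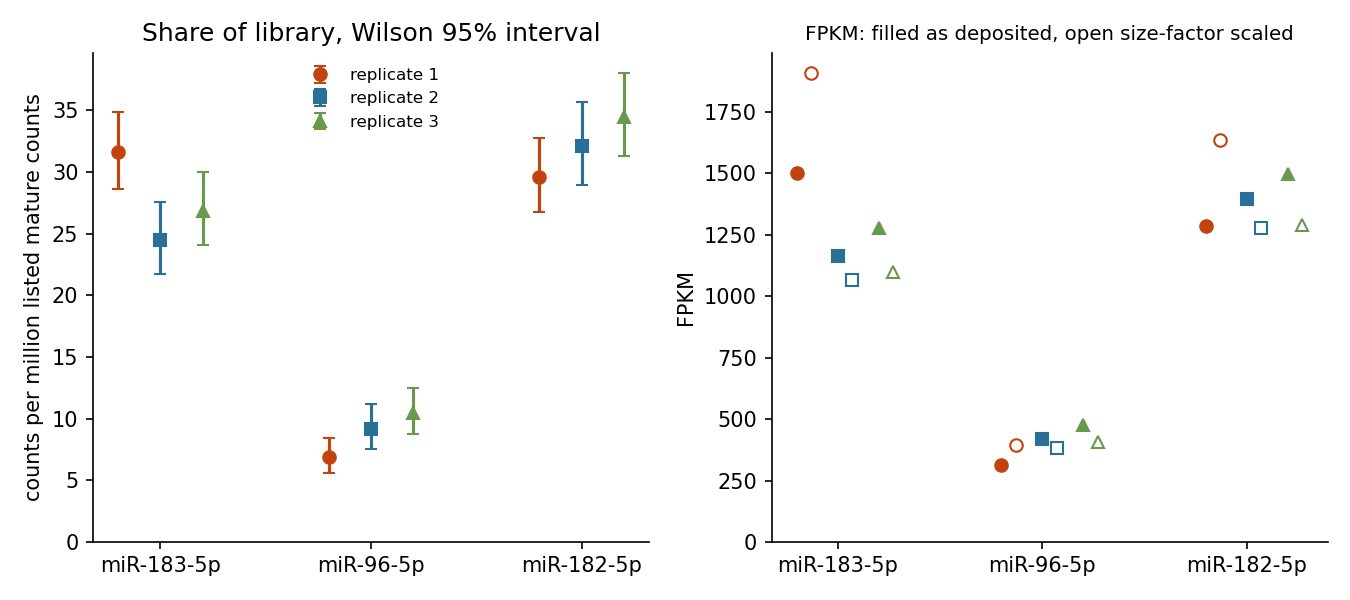
Level of each 5p arm in the 3 libraries, as CPM with 95% Wilson intervals (left) and as FPKM (right, filled points as deposited and open points after scaling by DESeq2 size factors). On the left, miR-182-5p and miR-96-5p were lowest in replicate 1 at 29.6 and 6.85 and miR-183-5p was highest there at 31.6, whereas after scaling replicate 1 was highest for both miR-183-5p and miR-182-5p.

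Between replicate 1 and the other libraries the members differed in direction, while replicates 2 and 3 gave like values. From replicate 1 to replicate 2, miR-183-5p had a log2 difference of -0.37 in CPM, and to replicate 3 the difference was -0.23. miR-96-5p was higher by 0.42 and 0.61, close to the median shift of all mature miRNAs. miR-182-5p was higher by 0.12 and 0.22. From replicate 2 to replicate 3, the 3 arms were all higher, by 0.10 to 0.19.

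The coefficient of variation (CV, the SD as a percent of the mean) was 13.1% for miR-183-5p, 20.6% for miR-96-5p and 7.60% for miR-182-5p on the deposited FPKM. Counting error alone would give 5.52%, 9.84% and 5.15%. Mature names with a mean count within 2-fold of miR-182-5p had a median CV of 25.4% (n = 93), and 3 of them had a CV at or below that of miR-182-5p. The corresponding medians were 25.6% for miR-183-5p (n = 100, 16 at or below it) and 29.2% for miR-96-5p (n = 130, 45 at or below it). This order depended on how the libraries were scaled. After scaling by DESeq2 size factors, which take out the shift of replicate 1, the CV was 35.2% for miR-183-5p, 3.28% for miR-96-5p and 14.5% for miR-182-5p, beside like-count medians of 22.3%, 26.7% and 21.8%. The scaled FPKM of miR-183-5p were then 1911, 1066 and 1100, against 1636, 1278 and 1290 for miR-182-5p and 396, 382 and 408 for miR-96-5p. miR-96-5p thus had the largest CV of the arms on one scale and the smallest on the other.

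Summed over its arms the cluster received 864, 723 and 839 mature counts, or 68.1 CPM, 65.8 and 71.8 (mean 68.6 ± 3.05, SD, n = 3). The CV of the sum was 4.45%, less than that of any single arm on this scale. With size factors the CV of the sum was 21.2%.

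Among the 783 mature names miR-182-5p ranked 257, miR-183-5p 262 and miR-96-5p 360 by mean FPKM. All were above the median mature name, which stood at 270 FPKM. The exact places could not be resolved. For miR-182-5p, 47 other names had a mean that differed by less than the larger of the SDs, over ranks 198 to 284. For miR-183-5p there were 47 such names, over ranks 198 to 328, and for miR-96-5p there were 60, over ranks 280 to 417. The neighbors of miR-182-5p were miR-1226-3p just above, at 1396 ± 408 FPKM, and miR-30b-3p just below, at 1371 ± 545 FPKM (SD, n = 3). miR-182-5p and miR-183-5p also lay within an SD of each other, whereas miR-96-5p did not lie within an SD of either.

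**Figure D3:**
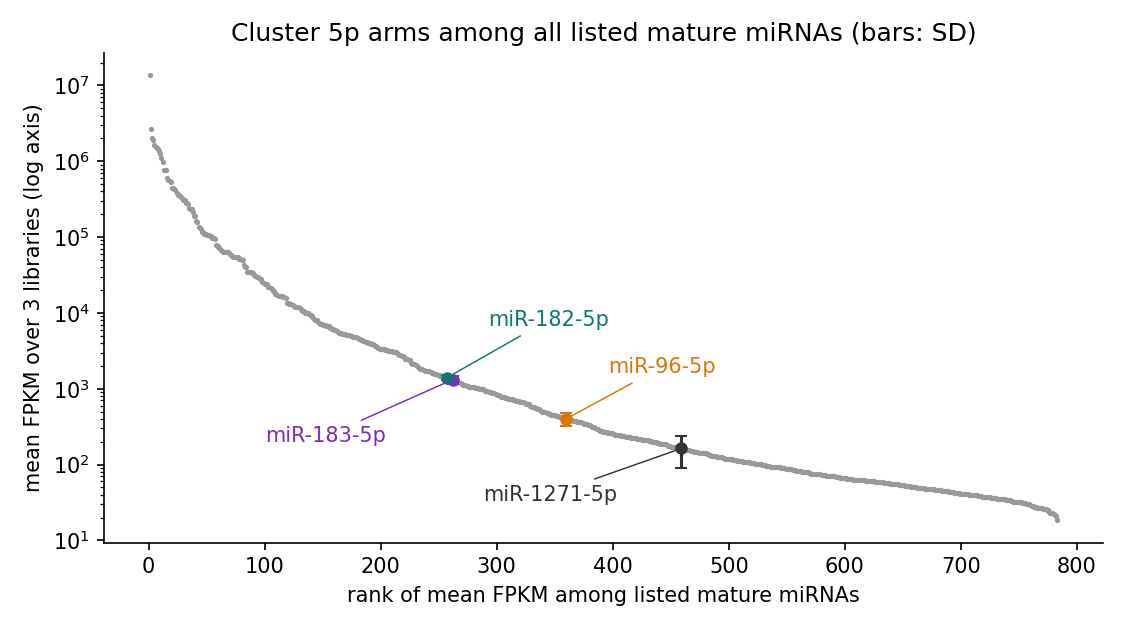
Mean FPKM of each listed mature name (log scale) against its rank among 783 names, with the members and miR-1271-5p marked (error bars show the SD over 3 libraries). miR-182-5p and miR-183-5p stood side by side at ranks 257 and 262, with miR-96-5p at 360 and miR-1271-5p at 459.

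The question raised by a common transcript is whether its hairpins were found in equal amounts. The hairpin table gave mir-183 counts of 404, 270 and 321, mir-96 counts of 87, 105 and 122, and mir-182 counts of 378, 355 and 403. In replicate 1, mir-183 took 46.5% of the cluster's counts (95% interval 43.2 to 49.8), mir-182 43.5% (40.2 to 46.8) and mir-96 10.01% (8.19 to 12.2). In replicate 2 the shares were 37.0% (33.6 to 40.5), 48.6% (45.0 to 52.3) and 14.4% (12.0 to 17.1). In replicate 3 they were 37.9% (34.7 to 41.3), 47.6% (44.3 to 51.0) and 14.4% (12.2 to 16.9). mir-183 was therefore the first hairpin in replicate 1 with an interval that overlapped that of mir-182, and mir-182 was the first in the other libraries, where the intervals did not overlap. mir-96 was last in all 3.

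The mean shares were 40.5% ± 5.23 for mir-183, 12.9% ± 2.54 for mir-96 and 46.6% ± 2.72 for mir-182 (SD, n = 3). FPKM for a hairpin is divided by the length of the whole hairpin, although nearly all reads came from an arm. The length used by the authors was 77 bases for mir-96 and 109 bases for the other members. On that scale the levels were 256 ± 33.5 FPKM for mir-183, 116 ± 24.2 FPKM for mir-96 and 294 ± 21.5 FPKM for mir-182 (SD, n = 3), at ranks 242, 291 and 234 of 661. The share of mir-96 was 17.4% when hairpin FPKM were used. The order of the hairpins did not change.

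The ratios were tested with edgeR, with the library as a block and hairpin length as offset. The test covered all 136 pairs on 1 strand within 10 kb of each other. Pairs were formed from the 600 of 661 listed hairpins with annotated coordinates. The threshold for a call was an adjusted p (Benjamini-Hochberg) under 0.05 together with an absolute log2 ratio of at least 1. Of the 3 pairs in the cluster 2 were called, beside 65.4% of all pairs tested, so unequal hairpins were common among neighbors. The pairs of the cluster share hairpins and are not independent of each other.

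mir-96 was lower than mir-182, with reads of mir-182 outnumbering those of mir-96 by 4.34, 3.38 and 3.30 to 1 in replicates 1, 2 and 3. Per length the log2 ratio was -1.36 ± 0.15 (SE, 95% interval -1.77 to -0.96, edgeR adjusted p = 0.00152), which made mir-96 lower by 2.57-fold. The ratio was in the same direction in 3 of 3 libraries. Of the other 133 pairs, 57 had a smaller absolute log2 ratio per length. Without division by length the log2 ratio of mir-96 to mir-182 was -1.86, and the other pairs were not placed on that scale.

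mir-183 was higher than mir-96, its nearest neighbor. The read ratios were 4.64, 2.57 and 2.63 to 1, with replicate 1 above the others. Per length the log2 ratio was 1.15 ± 0.23 (SE, 95% interval 0.52 to 1.78, edgeR adjusted p = 0.0102), or 2.22-fold, and 51 of the other 133 pairs had a smaller absolute ratio. Without replicate 1 the log2 ratio was 0.88 ± 0.06 (SE, edgeR adjusted p = 0.00167). That SE rests on replicates 2 and 3, which gave nearly the same ratio. The counting error of mir-96 alone was 9.76% and 9.05% there, so the SE and p can be too small. Per length the estimate then stayed in the same direction but no longer reached the required size of 1. Whether the ratio itself falls short of 1 was not resolved. In reads, not divided by hairpin length, mir-183 exceeded mir-96 by 2.57 and 2.63 to 1 in replicates 2 and 3. Over all libraries the undivided log2 ratio was 1.65, and the other pairs were not placed on that scale.

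mir-183 and mir-182 were not called. The read ratios were 1.07, 0.761 and 0.797 to 1, above 1 in replicate 1 alone. The log2 ratio was -0.21 ± 0.15 (SE, 95% interval -0.63 to 0.22, edgeR adjusted p = 0.264). The interval lay within the called size of 1, and only 10 of the other 133 pairs had a smaller absolute ratio. Without replicate 1 the log2 ratio was -0.36 (edgeR adjusted p = 0.00949), which was past the p threshold and still below the called size.

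**Figure D4:**
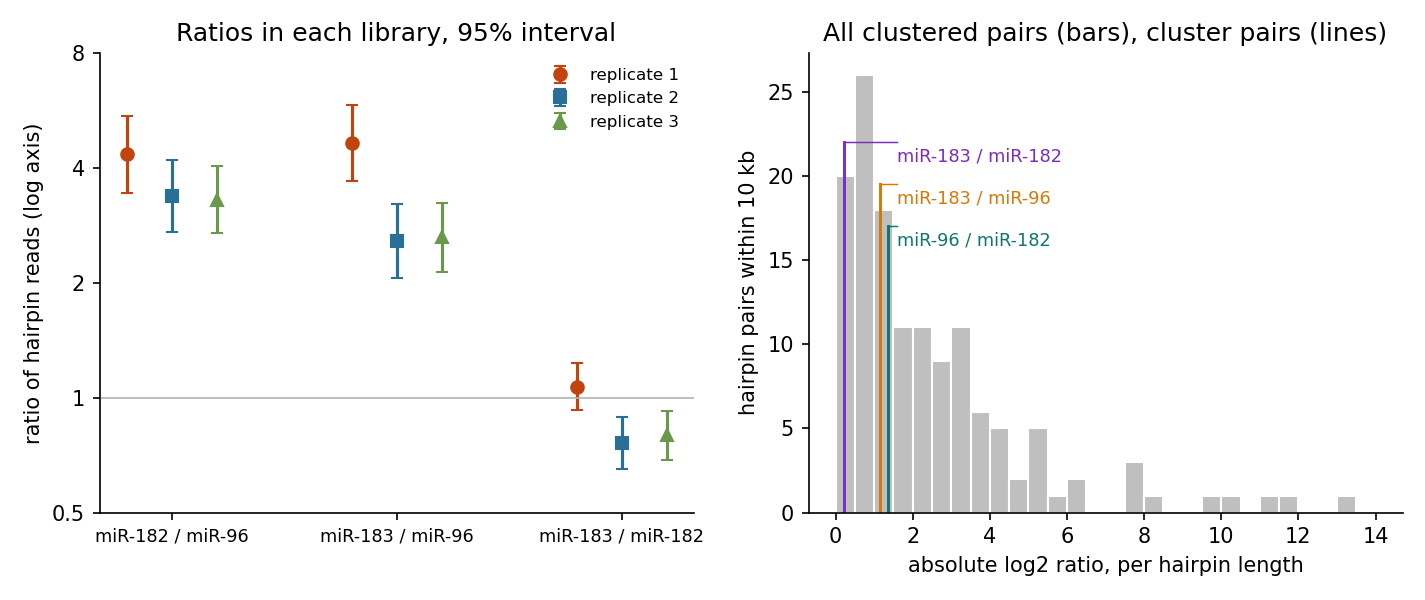
Ratios of hairpin reads in each library on a log axis (left, points with 95% counting intervals). The right panel gives the absolute log2 ratio per hairpin length (bars, with the 3 pairs of the cluster as lines). Its 136 pairs are listed hairpins with annotated coordinates on 1 strand within 10 kb. On the left, replicate 1 was highest for each pair, at 4.34, 4.64 and 1.07. On the right, mir-183/mir-182 lay near the low end, and mir-183/mir-96 and mir-96/mir-182 lay below the median of the other pairs (1.74). This placing holds per hairpin length only. Undivided, the log2 ratios were 1.65 for mir-183/mir-96 and -1.86 for mir-96/mir-182.

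Whether a ratio differed between the libraries by more than counting error was asked with an exact test of the counts of each pair in the 3 libraries. The test compares these libraries only. Of the 3 pairs 2 differed, beside 75.7% of the 136 pairs. The ratio of mir-183 to mir-182 differed (exact test, adjusted p = 0.00294), as did that of mir-183 to mir-96 (exact test, adjusted p = 0.000252). The ratio of mir-96 to mir-182 did not pass the threshold (exact test, adjusted p = 0.211). Without replicate 1, an alternative chosen after the data were seen, neither of the called pairs passed (exact test, adjusted p = 0.850 for mir-183/mir-182 and 0.991 for mir-183/mir-96). Both pairs involved mir-183, and neither call held without replicate 1.

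The ratios of the mature arms gave the same order. miR-182-5p exceeded miR-96-5p by 4.13-fold, 3.34-fold and 3.16-fold in FPKM (mean 3.55 ± 0.52, SD, n = 3). miR-183-5p exceeded miR-96-5p by 4.83-fold, 2.79-fold and 2.70-fold (mean 3.44 ± 1.205). The ratio of miR-182-5p to miR-183-5p was 0.86, 1.198 and 1.17 (mean 1.08 ± 0.19), so that it crossed 1 between replicate 1 and the others. The efficiency of adapter ligation depends on the sequence at the ends of an RNA, and its part in these ratios was not tested.

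Nearly all reads of each hairpin were assigned to its 5p arm. For mir-183, 3 of 404, 1 of 270 and 7 of 321 counts fell outside miR-183-5p, or 1.11% over all libraries (95% interval 0.62 to 1.97). For mir-96 it was 0 of 87, 4 of 105 and 0 of 122, or 1.27% (0.50 to 3.23). For mir-182 it was 2 of 378, 2 of 355 and 0 of 403, or 0.35% (0.14 to 0.90). Any reads of the 3p arms were among these, so in each hairpin the 5p arm took the great majority of reads. Low values of this kind were common in the data. Among 278 other hairpins with at least 100 counts and a listed arm the median was 0.32%, and among the 137 of these with 1 listed arm it was 1.30%. Of 374 hairpins whose 2 arms are both named, 187 had both listed, 71 only the 5p arm and 96 only the 3p arm. All 3 hairpins of the cluster were of the class with only the 5p arm listed, which made up 19.0% of the 374.

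The seed of miR-96-5p occurred in 1 other human mature sequence of RefSeq, that of miR-1271-5p, and the seeds of miR-183-5p and miR-182-5p occurred in none. miR-1271-5p is encoded on chromosome 5, at 176367960 to 176367981 on the plus strand of GRCh38. It is shown with the seed in capitals because an arm with this seed can pair with the same seed matches as miR-96-5p.
hsa-miR-1271-5p: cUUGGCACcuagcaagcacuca

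miR-1271-5p was counted 22, 42 and 55 times, or 82.5 FPKM, 181.9 FPKM and 224 FPKM (mean 163 ± 72.7, SD, n = 3), at rank 459. Like miR-96-5p it was lowest in replicate 1 on the deposited scale, and the median mature miRNA was lower there too. After scaling by DESeq2 size factors miR-96-5p was not lowest in replicate 1 (396, 382 and 408 FPKM). On the deposited scale miR-1271-5p was below miR-96-5p in each of the 3 libraries. miR-96-5p was thus the more abundant carrier of this seed in these cells.

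Other small miRNA clusters were set beside this one by the ratio of their highest to their lowest hairpin in mean FPKM. In the miR-183, miR-96 and miR-182 cluster the ratio was 2.54, and it ranged from 2.33 to 3.28 over the libraries. It was 1.54 in miR-23a/27a/24-2, 3.35 for miR-212 and miR-132, 4.14 in miR-106b/93/25, 4.99 for miR-200b, miR-200a and miR-429, 32.7 for miR-200c and miR-141, and 35.7 in miR-23b/27b/24-1. On this scale the cluster was thus among the more even ones of this list. The scale divides by hairpin length, and mir-96 is the shorter hairpin. In reads mir-182 exceeded mir-96 by 4.34, 3.38 and 3.30 to 1, and the other clusters were not compared in reads. miR-24 is made from 2 loci whose reads cannot be told apart, which bears on both miR-23 clusters. In level the miR-183, miR-96 and miR-182 cluster stood near miR-200b, miR-200a and miR-429, whose hairpins had 152 to 758 mean FPKM. It was far below miR-106b/93/25 at 38654 to 160091 mean FPKM.

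The listed hairpins with annotated coordinates within 5 Mb of MIR182 had levels on either side of the cluster. mir-29a, a regulator of collagen messages, was at 33927 ± 12635 FPKM and mir-335 at 3322 ± 600 FPKM. mir-29b-1 was at 554 ± 134 FPKM, mir-3654 at 40.7 ± 10.9 FPKM and mir-129-1 at 22.3 ± 7.59 FPKM (SD, n = 3). The 3 hairpins of the cluster lay between mir-3654 and mir-29b-1.

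Among the 9 hairpins of the growth-promoting list of the screen, mir-182 was in place 7 by mean FPKM. mir-155, an oncogenic miRNA of blood cells, was highest at 378768 FPKM, and let-7e stood just above mir-182 at 760 FPKM. mir-320d-2 at 76.7 FPKM and mir-150 at 14.1 FPKM were below it. The list had been restricted to miRNAs found in these libraries, so it is not independent of level. mir-183 and mir-96 are not on that list.

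Of 6 miRNAs of neural and sensory cells, 4 were listed, from miR-124-3p at 55618 mean FPKM to miR-7-5p at 426746 mean FPKM. miR-204-5p and miR-211-5p, which are typical of the retinal pigment epithelium, were not among those listed. The listed ones were all well above the 3 arms of the cluster. The list was set by name, and whether these levels reflect a neural or sensory program was not tested.

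The mature names whose profile over the 3 libraries was most like that of miR-182-5p were miR-4420, miR-1304-5p, miR-1976, miR-1307-3p and miR-221-5p. Likeness was the root mean square difference of log2 CPM, each centered over the libraries, among 329 names with at least 100 counts in every library. It was 0.015 to 0.032 for these 5 names, against a median of 0.29. It was 0.22 for miR-183-5p, in place 131 of 329. For miR-96-5p, which fell below the count minimum in replicate 1, the difference was 0.17, which corresponds to place 98. Many other miRNAs were thus nearer to miR-182-5p over these libraries than its own cluster members, but both members were nearer than the median. Counting error enters all of these differences, at 5.15% for miR-182-5p and 9.84% for miR-96-5p. The differences of the 5 named miRNAs were smaller than that of miR-182-5p alone, so their choice among close names was not resolved. The ratio of mir-96 to mir-182 did not pass the threshold for a difference between libraries beyond counting (exact test, adjusted p = 0.211). With 3 points that differ mainly in replicate 1, this is a description of these libraries.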

How the data were processed

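RNA was isolated from 3 MV4-11 cultures with Qiagen miRNeasy columns, libraries were made with the NEB protocol for Illumina, and sequencing was done on a HiSeq instrument. Reads were counted over miRBase release 21. The submitters' processing notes name Novoalign 2.08.03 and the builds mm10 and hg19, without saying what each was used for. The authors deposited whole read counts, not normalized, for mature strands and for hairpins. They also deposited FPKM, which they obtained from the counts by dividing by feature length and library total. The length was the annotated length less 1 base for 671 of 679 matched mature names and 593 of 600 hairpins. Every listed feature reached 10 counts in at least 1 library, and no level was given to one not listed. The totals behind the mature FPKM exceeded the listed counts by 2605, 2337 and 2672 reads.

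The 851 mature entries were reduced to 783 names by summing the entries of each name. Levels are FPKM as deposited, with mean and SD over the libraries, and shares carry 95% Wilson intervals. The libraries differed by far more than sampling noise (chi-square per degree of freedom 354 to 3462 between pairs) and were used as 3 replicates. The common biological CV over all mature names was 33.1%, and 15.5% without replicate 1. Hairpin ratios were tested in R 4.3.3 with edgeR 4.0.16 (quasi-likelihood), adjusted over all 136 pairs. Differences of a ratio between libraries were tested with an exact test of the 2 by 3 table of counts (58 pairs) or, above 5000 counts in a library, a chi-square test (78 pairs). Alternatives used TMM factors, DESeq2 1.42.0, limma 3.58.1 with a pseudocount of 1 FPKM, summed arms, a minimum of 10 counts, no length offset, no replicate block, and each library left out. The tests were checked on simulated counts. Python 3.11.15 with scipy 1.17.1, pandas 2.3.3 and numpy 2.4.6 served for all else.

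A planned test of arm preference was not run for the cluster, because only 1 arm of each hairpin was listed. Genome positions were taken from GENCODE and sequences from RefSeq, both on GRCh38, and the tables themselves carry no coordinates. Besides the members, the miRNAs named were the 2 nearest in level on each side (given as examples), the 5 most alike to the most abundant arm, those sharing a seed, hairpins within 5 Mb, and lists of small clusters, screen loci, blood, epithelial and neural miRNAs. The members and lists were chosen with earlier results of these data known.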

Additional observations from a re-analysis of the deposited data

How the results depend on the processing

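Of 171 alternative values, 148 counted as unchanged, 20 moved, 3 lost a call and 0 changed direction. Levels and shares counted as unchanged within the SD, and ranks, CVs and the number of pairs called within 1.5-fold. Tests counted as unchanged on the same side of the threshold. The cause of the moves was not tested. With TMM factors the CV over the libraries was 37.8% for miR-183-5p, 3.21% for miR-96-5p, 17.1% for miR-182-5p, 28.9% for mir-183, 6.25% for mir-96 and 9.07% for mir-182. With DESeq2 size factors the values were 35.2%, 3.28%, 14.5%, 30.8%, 4.61% and 10.8%. With each library left out in turn the CV ranged from 6.63% to 17.9% for miR-183-5p, 9.04% to 29.4% for miR-96-5p, 5.06% to 10.8% for miR-182-5p, 7.91% to 18.2% for mir-183, 6.29% to 29.3% for mir-96 and 4.65% to 10.3% for mir-182. With one common length for all features, levels moved to 1527 FPKM for miR-182-5p, 344 FPKM for mir-183 and 396 FPKM for mir-182. The share of mir-96 was 17.4% from deposited FPKM. The log2 ratio of mir-183 to mir-96 ranged from 0.88 to 1.30 with a library left out, the lowest value without replicate 1. Without division by hairpin length it was 1.65, and from the summed counts of the listed arms, also undivided, 1.66. The corresponding values for mir-96/mir-182 were -1.86 and -1.88, against -1.36 with division by length, and both pairs kept their calls. The exact-test adjusted p for a difference between libraries ranged from 0.00283 to 0.850 for mir-183/mir-182 and from 0.000617 to 0.991 for mir-183/mir-96, in both cases highest without replicate 1. Leaving out libraries in this test was chosen after the data were seen. Ranks ranged from 249 to 290 for miR-182-5p, 255 to 294 for miR-183-5p and 357 to 399 for miR-96-5p. Between 82 and 91 pairs were called over the alternatives. Without the replicate block of the ratio test, also chosen after the data were seen, the log2 ratios were -1.35, -0.20 and 1.14 for mir-96/mir-182, mir-183/mir-182 and mir-183/mir-96, with no change of call.

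Depth limits miR-96 most. Its 87 to 122 counts in a library leave a counting error near 10% of the value. Every comparison rests on 3 cultures of 1 line, of which replicate 1 differs from the others. Ligation and amplification differ between sequences, so ratios of arms are ratios of reads.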
